A study of Mus musculus with 5 samples.

Results

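The let-7 family and its close relative miR-98 were measured by the probes of mmu-let-7a-5p, mmu-let-7b-5p, mmu-let-7c-5p, mmu-let-7d-5p, mmu-let-7e-5p, mmu-let-7f-5p, mmu-let-7g-5p, mmu-let-7i-5p and mmu-miR-98-5p. These 9 probes were taken by name from the 1900 mouse miRNAs of the array, and all 9 were present. Total RNA came from back skin of female mice in telogen, the resting stage of the hair cycle. There was 1 single-colour array for each of 5 conditions: unwounded skin of 2-year-old mice (aged D0), skin of 2-year-old mice on day 3, 5 or 7 after a full-thickness 3 mm punch wound (D3, D5 and D7), and unwounded skin of 8-week-old mice (young D0). All of the arrays therefore share sex, body site and hair cycle stage, and no genetic change or drug was applied to any of them. Strain and number of animals behind each RNA sample are not given in the sources used here. Because each condition has 1 array, no difference between conditions could be tested, no p-value is given, and differences between animals are not measured.

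let-7 miRNAs are small RNAs that pair through their seed, the bases near the 5′ end, with messenger RNAs and lower their translation and stability. They are known as brakes on growth: well-studied targets include the Ras genes, Myc and Hmga2, and their level rises when stem and progenitor cells differentiate. The RNA-binding proteins LIN28A and LIN28B, themselves let-7 targets, bind let-7 precursors and block their maturation, so that mature let-7 can change without a change in transcription. miR-98 carries the same seed and is usually counted as a let-7 family member.

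The mature sequences show why the family is treated as one and also what separates its members. They are given from RefSeq (GRCm38.p6), 5′ to 3′, with the seed, bases 2 to 8, in capitals.
let-7a-5p: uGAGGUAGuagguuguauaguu
let-7b-5p: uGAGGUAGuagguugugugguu
let-7c-5p: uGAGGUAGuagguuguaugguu
let-7d-5p: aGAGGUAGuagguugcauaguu
let-7e-5p: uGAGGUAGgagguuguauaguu
let-7f-5p: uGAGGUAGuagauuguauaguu
let-7g-5p: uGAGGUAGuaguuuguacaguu
let-7i-5p: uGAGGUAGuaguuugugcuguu
miR-98-5p: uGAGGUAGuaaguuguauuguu

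All 9 are 22 bases long, share the same seed and equal the target sequences listed for their array probes. Their GC content ran from 31.8% to 45.5%. Counted from 1 at the 5′ end, let-7c differs from let-7a by A19G, let-7e by U9G and let-7f by G12A, and let-7b differs from let-7c by A17G. These 4 pairs differ at 1 base, out of 36 pairs that differ at 1 to 6 bases. miR-98 differs from let-7a by G11A and A19U. How far a probe also captures RNA of a member that differs at 1 base was not tested, so the value of each probe is the signal on that probe rather than the amount of that miRNA alone.

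**Figure D1:**
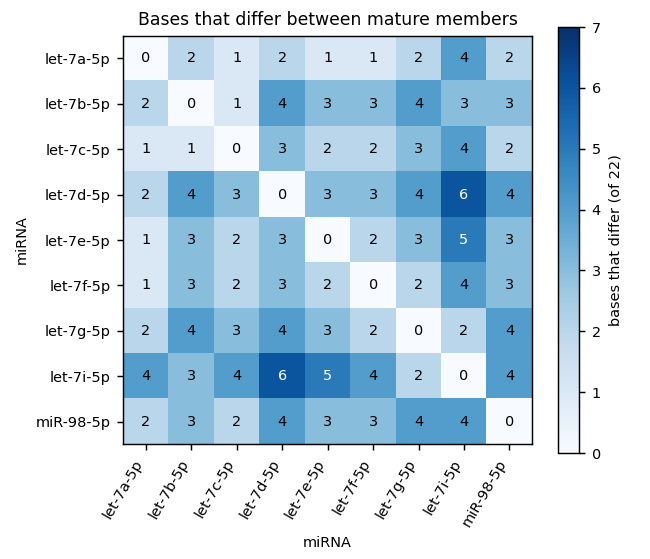
Number of bases, of 22, at which each pair of mature family members differs (rows and columns: the 9 miRNAs; darker blue: more differences). let-7c, let-7e and let-7f sit 1 base from let-7a, while let-7d and let-7i are farthest apart with 6.

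The members come from 12 hairpin genes. In GRCm38.p6, let-7a-5p is at chr13:48538239-48538260 on the minus strand (Mirlet7a-1), and the second hairpin, Mirlet7a-2, is on chromosome 9. Mirlet7f-1 and Mirlet7d lie 261 and 2064 bp from Mirlet7a-1, with let-7f-5p at chr13:48537889-48537910 and let-7d-5p at chr13:48536078-48536099. let-7b-5p (chr15:85707325-85707346, plus strand) and one copy of let-7c-5p (chr15:85706616-85706637) come from hairpins 621 bp apart within the span of the long non-coding RNA gene Lncppara. The other let-7c copy is at chr16:77599672-77599693, beside Mir99a. let-7e-5p is at chr17:17830366-17830387, within the span of Spaca6 and between Mir99b and Mir125a. let-7g-5p is at chr9:106178846-106178867 within the span of Wdr82, and let-7i-5p is at chr10:122985698-122985719 on the minus strand with no hairpin of another member beside it. On the X chromosome, the second let-7f copy (chrX:151912353-151912374) and miR-98-5p (chrX:151913229-151913250) come from hairpins 785 bp apart within the span of Huwe1.

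All 9 members were bright on all 5 arrays. A probe was called detected when its 2 spots averaged more than the 95th percentile of the array's 4 empty spots, which lay between 58.3 and 107 units, and bright when it was above 2 times that level. The lowest mean was 152 units and the highest spot 17619 units, so that no member value is given as a bound. miR-98-5p was nevertheless close to the bright level at aged D0 (245 against 211), D3 (152 against 117) and D5 (167 against 122). Its ratios that use these arrays can therefore be drawn towards 1 by the signal of the empty spots. The arrays themselves differed in brightness: the median scanned intensity over all miRNA spots ran from 62.9 at D5 to 111 at D7, and it was 97.4 at aged D0, 68.5 at D3 and 94.4 in young D0. Markers of skin were present, with all 7 epithelial miRNAs of the miR-200, miR-203 and miR-205 group detected on every array.

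The scanned intensity of let-7a-5p at aged D0 was 9246, the wounds gave 2985 (D3), 4235 (D5) and 7327 (D7), and young skin gave 16675. For let-7b-5p it was 4467, 1059, 1709, 3687 and 10325 in the same order, and for let-7c-5p 8098, 2204, 2996, 5542 and 13286. These 3 probes were lowest on D3, higher on each later day, and highest on the young array. let-7d-5p gave 6357, 2556, 3620, 6672 and 14738, and let-7f-5p, whose hairpin lies in the same cluster, gave 7809, 2980, 3899, 7696 and 16867. For both, D7 was close to D0 and D3 was the lowest array.

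The 4 remaining probes were also lowest on D3 and highest on the young array. let-7g-5p gave 2233, 1221, 1397, 2557 and 7719 in the same order. let-7i-5p gave 1969, 1395, 1702, 2828 and 5343. In both, D7 was above D0. let-7e-5p gave 703, 298, 541, 1537 and 6498, and miR-98-5p gave 245, 152, 167, 426 and 2708. These last 2 stood out by the distance between the young array and the others.

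**Figure D2:**
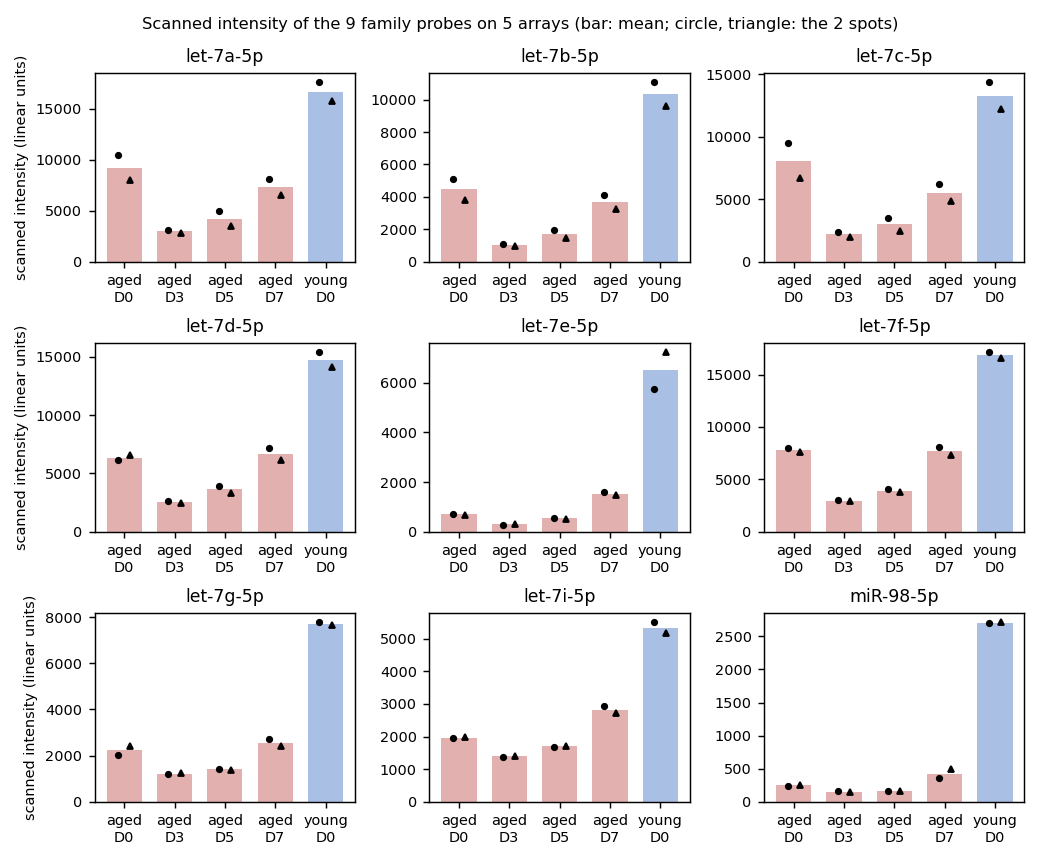
Scanned intensity (vertical axis, linear units from 0) of each family probe on the 4 arrays of aged skin (red) and the array of young unwounded skin (blue); bars are means of the 2 spots, and circles and triangles are the spots. All 9 probes are lowest on D3 and highest on the young array, where miR-98-5p reaches 2708 against 245 at aged D0.

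Part of these differences is shared by most bright miRNAs. Between aged and young D0, 201 of the 210 miRNAs bright on both arrays had a lower scanned intensity on the aged array. The 2 arrays were close in the median of all miRNA spots (97.4 and 94.4), in 5S RNA probes (35666 and 35821) and in spike controls (10963 and 11758). The comparisons use ratios after background correction and quantile normalization over the 5 arrays, which gives all arrays the same distribution of values. This takes out much of a difference shared by bright miRNAs, and whether that difference came from the array or from the skin was not tested. Each is set beside the median of all miRNAs bright on the 2 arrays compared. A ratio below 1 means a lower value than on the D0 array, or, for aged over young, a lower value in aged skin. The SD of a log2 ratio between repeat spots of bright miRNAs was 0.20 in the D3 comparison, 0.19 in that of D5, 0.35 in that of D7 and 0.19 between ages. It covers the array only.

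The first question was how the family stood in the early wound. On D3 all 9 members had a D3/D0 ratio below 1. The family median was 0.527, that is -0.92 on the log2 scale, against 0.781 for the 207 bright miRNAs, 69.1% of which were below 1. A value at least 2-fold lower on D3 was seen in 4 of the 9 members, against 19.8% of the bright miRNAs, and no member was 2-fold higher, against 14.5%.

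let-7b-5p had the lowest ratio, 0.304, with 0.276 and 0.335 from its 2 spots. let-7e-5p followed with 0.374, let-7c-5p with 0.389 and let-7a-5p with 0.497. let-7d-5p, let-7f-5p and miR-98-5p lay together at 0.527, 0.555 and 0.555. The ratio of let-7g-5p was 0.654, with spots at 0.721 and 0.592. let-7i-5p was the exception of the family, with 0.851 and almost equal spots, 0.853 and 0.849. It was also the one member above the bright median, and its ratio was 2.80-fold that of let-7b-5p. The direction of let-7i-5p changed with the processing, since cyclic loess gave 1.02 and the processed values of the authors gave 1.11, whereas the other 8 members stayed below 1 under all 10 alternatives. The place of let-7e-5p in this order also depended on the processing. Without normalization its ratio was 0.426, above those of let-7a, let-7b, let-7c, let-7d and let-7f. It was less than 2-fold lower with cyclic loess, at 0.523, and with scaling to the median, at 0.590.

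Relative to the other bright miRNAs on D3, the family median was 0.675 times the bright median with quantile normalization. It was 0.494 times without normalization, a value that scaling whole arrays cannot change, so that the 3 scaling alternatives give the same one, and between 0.601 and 0.675 times with the other alternatives. At least 8 of the 9 members were below the bright median in each of them. Depending on the processing, 30 to 46 of the 207 bright miRNAs had a ratio smaller than the family median.

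Other measures moved with the D3 array. Bright miRNAs with a GC content at or below their median of 50% had a median D3/D0 ratio of 0.686 (108 miRNAs), against 0.983 for the 99 with higher GC content, and all 9 members are on the low side. The summed normalized intensity of the 5 leukocyte miRNAs on the array (miR-223, miR-142a, miR-150 and miR-155) was 1088 at D0, against 5328, 3688 and 3707 on the 3 wound days. For the 4 skeletal muscle miRNAs it was 28504 at D0 and then 8817, 12087 and 14435, and for the 7 epithelial ones 37284 and then 21291, 29054 and 24746. Members of these lists did not all follow the sum, which the brightest probes carry: on D3 the log2 ratio of the epithelial miR-200c-3p was 1.07 and that of the leukocyte miR-150-5p was -0.43. The 6 fibroblast and vessel miRNAs summed to 21816 at D0 and then to 12606, 22017 and 26726, and the 3 erythroid ones to 2412 and then to 1248, 1940 and 967. Of the erythroid list, miR-144-3p was detected on the D3 array alone, at 59.2 units against a detection level of 58.3. Its scanned intensity was higher at aged D0 (85.4), D7 (99.0) and young D0 (73.4), where the detection level was also higher. Of all 1900 miRNAs, 1768 were detected on D3, against 589 at aged D0, 1071 on D5, 1559 on D7 and 691 in young D0. Detection on D3 but not at aged D0 was therefore common. Of the leukocyte list, 4 of 5 were detected at D0, miR-142a-3p being the exception, and all 5 on each later day. miR-142a-3p scanned at 87.6 at D0 and 86.9 on D5, against detection levels of 105 and 61.1. Its call on D5 thus came with a lower level and not with a higher signal. All miRNAs of the muscle, epithelial and fibroblast and vessel lists were detected on every array. The part of GC content and of cell mixture in the family's D3 values was not tested. In a piece of whole skin, fewer cells of a type and less RNA per cell cannot be told apart.

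**Figure D3:**
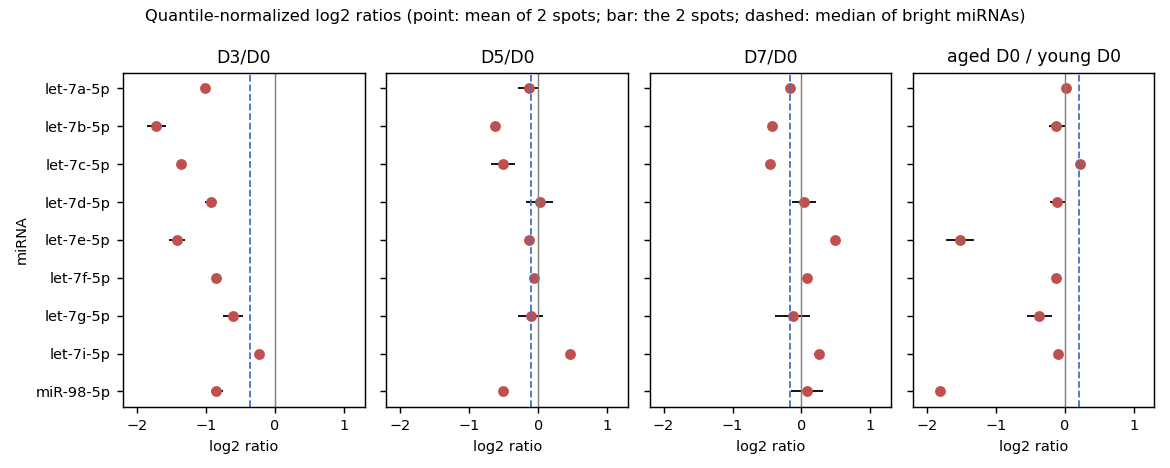
Quantile-normalized log2 ratios (horizontal axis) of the 9 family members in the 4 comparisons; red points are means of the 2 spots, black bars join the spots, the grey line is no difference and the blue dashed line is the median of bright miRNAs. On D3 all members except let-7i-5p lie left of the dashed line, and in aged over young let-7e-5p and miR-98-5p lie far to the left.

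From D3 to D5 all 9 members were higher, by 1.26-fold for miR-98-5p up to 2.43-fold for let-7e-5p. The median of the bright miRNAs relative to D0 was also higher on D5, at 0.932, than on D3, at 0.781. The share of bright miRNAs that were higher on D5 than on D3 was not counted. The family median for D5/D0 was then 0.909, beside 0.932 for the 204 bright miRNAs. How near it came to the bright median depended on the processing. The family median was 0.975 times the bright median with quantile normalization and 0.835 times with the processed values of the authors. Without normalization and with the 3 scalings of whole arrays it was 0.730 times, with 7 of the 9 members below. No member was 2-fold higher or lower than D0, where the background was 7.84% and 9.8% of the bright miRNAs. let-7b-5p was lowest again, at 0.649, with let-7c-5p at 0.700 and miR-98-5p at 0.701. let-7i-5p was highest again, at 1.37 with spots at 1.36 and 1.39, and it was above the bright median under every alternative, by 1.12-fold to 1.48-fold. Its ratio to D0 was nevertheless below 1 without normalization, at 0.869, with scaling to the 75th percentile, at 0.952, and with scaling to the spike controls, at 0.651. For let-7a, let-7d, let-7e, let-7f and let-7g the ratio lay between 0.906 and 1.02, and the 2 spots of let-7d-5p fell on either side of 1, at 1.16 and 0.888.

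On D7 the family median was 1.02 times D0, beside 0.895 for the 203 bright miRNAs. Its place above the bright median, at 1.15 times, depended on the processing: without normalization and with the 3 scalings of whole arrays it was 0.858 times the bright median, with 6 of the 9 members below. Again 0 of the 9 members passed 2-fold in either direction, with a background of 7.88% higher and 10.3% lower. Of the members, 5 were above and 4 below D0. let-7c-5p and let-7b-5p remained lowest, at 0.733 and 0.743, and stayed below 1 under every alternative. let-7e-5p was highest, at 1.40 with spots at 1.37 and 1.42. It stayed above 1 under every alternative, from 1.35 to 2.27, and was 1.56-fold above the bright median. Between D5 and D7 let-7e-5p and miR-98-5p were the members with the largest ratios, at 1.54 and 1.51, although the spots of miR-98-5p gave 1.26 and 1.80. Repeat spots disagreed more on D7 than on the other days, with 1.09 and 0.769 for let-7g-5p.

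Across the 5 arrays, D3 was lowest for all 9 members after quantile normalization, and for 8 of 9, all but let-7i-5p, when cyclic loess or the processed values of the authors were used. The young array was highest for 6 of 9, and for 3 to 9 depending on the processing. D5 and D7 were above D3 for 9 of 9 members under each processing of all 5 arrays. How many of all bright miRNAs share these patterns was not counted, so the counts cannot be read as particular to the family. Of the 207 miRNAs bright on D3 and aged D0, 69.1% were below aged D0 on D3. The spots of the lowest and the next array overlapped in none of the members. Above D3, the spots of aged D0, D5, D7 and young D0 overlapped between each pair of neighbours for let-7a, let-7c, let-7d and let-7f, so that neighbours in that order cannot be told apart by their spots. Arrays farther apart in the order can differ: for let-7c-5p both spots put D5 (0.788 and 0.622) and D7 below aged D0. For let-7i-5p no neighbouring arrays overlapped: normalized intensities were 2995 on D5, 2590 on D7, 2332 in young D0, 2180 at aged D0 and 1855 on D3.

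**Figure D4:**
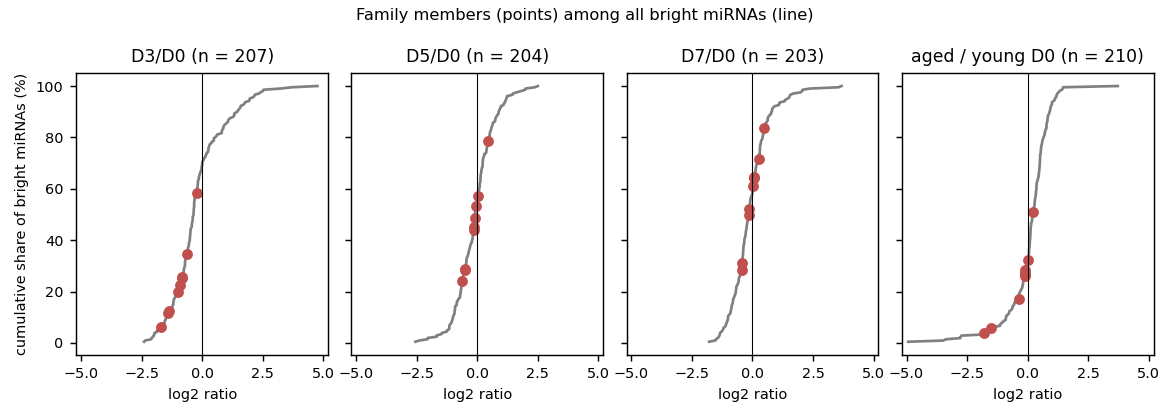
Cumulative share (vertical axis, percent) of miRNAs bright on both arrays against their log2 ratio (horizontal axis) in the 4 comparisons, with the 9 family members as red points on the grey curve. On D3, 8 of the 9 points lie below the middle of the curve; on D5 and D7 they spread around it, and in aged over young 2 points lie near the bottom.

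The remaining comparison asked how the family differed between unwounded skin of old and young mice. Here the members separated. Of the 9 members, let-7e-5p and miR-98-5p were at least 2-fold lower in aged skin, against 8.1% of the 210 bright miRNAs, and none was 2-fold higher, against 7.62%. The other 7 lay between 0.772 and 1.17. The family median was 0.923, beside 1.16 for the bright miRNAs.

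miR-98-5p had an aged over young ratio of 0.286, with 0.283 and 0.288 from its spots, and 7 of the 210 bright miRNAs had a smaller ratio. let-7e-5p had 0.349, with spots at 0.401 and 0.304, and 11 bright miRNAs were smaller. Both were lower in aged skin under every alternative, miR-98-5p at 0.0813 to 0.301 and let-7e-5p at 0.0979 to 0.363. Relative to the median of the other 8 members, miR-98-5p was at 0.309 and let-7e-5p at 0.377, and these relative values lay between 0.210 and 0.310 and between 0.253 and 0.378 over all processings, among which no normalization and the 3 scalings give one value by construction.

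let-7a-5p, which differs from let-7e-5p by U9G alone, had a ratio of 1.01. let-7f-5p, which shares the Huwe1 locus with miR-98 but also has a copy on chromosome 13, had 0.922. Both repeat-spot ratios of let-7a-5p and of let-7f-5p were above those of let-7e-5p and miR-98-5p. let-7g-5p had the next lowest ratio, 0.772, with spots at 0.682 and 0.874, and it was below the bright median under every alternative, at 0.603 to 0.668 times. let-7c-5p was highest, at 1.17 with spots at 1.20 and 1.13. For let-7a, let-7b, let-7c, let-7d, let-7f and let-7i the direction depended on the processing. The family median was 0.386 times young with scaling to the median and 1.43 times with scaling to the 75th percentile.

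Beside these values, the leukocyte sum was 1088 at aged D0 and 2652 in young D0, the muscle sum 28504 and 32573, the epithelial sum 37284 and 21400, the fibroblast and vessel sum 21816 and 19107, and the erythroid sum 2412 and 1132. Here too, list members did not all follow the sum. The log2 aged over young ratio was 1.18 for the epithelial miR-205-5p but -0.45 for miR-141-3p. For the muscle miR-1a-3p it was -0.54 but for miR-206-3p 0.11. Bright miRNAs of low GC content had a median aged over young ratio of 1.09 and those of high GC content 1.28. The part of these in the values of let-7e and miR-98 was not tested.

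**Figure D5:**
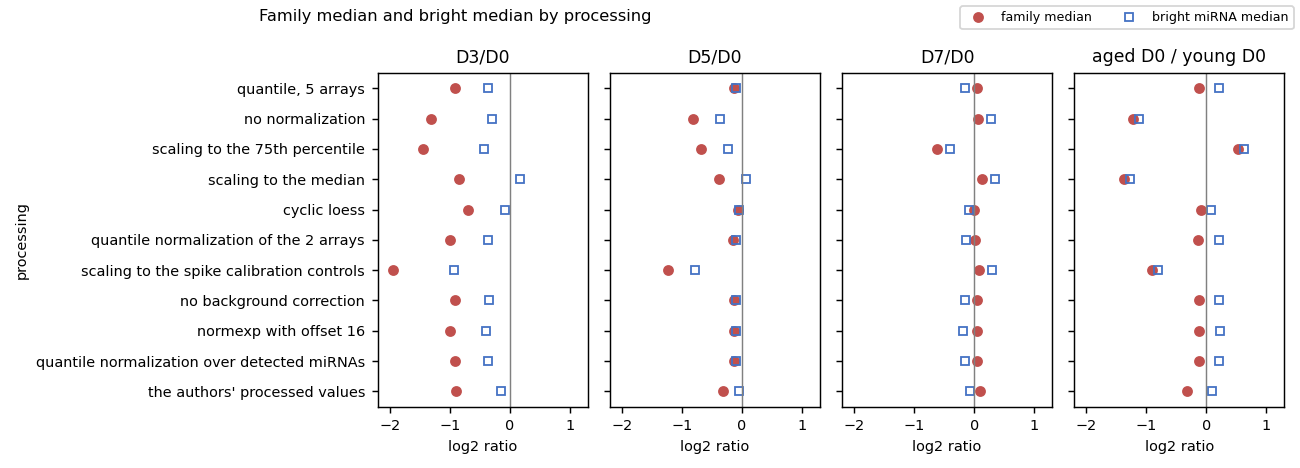
Median log2 ratio of the 9 family members (red) and of all bright miRNAs (blue squares) in the 4 comparisons (horizontal axes) under quantile normalization over 5 arrays and the 10 alternatives (vertical axis). On D3 the red point is left of the blue one in every row; in aged over young both shift together from 0.52 down to -1.37 for the family.

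Some related probes help to read the family. let-7k and miR-1961 have the same bases 2 to 8, and let-7j and miR-202-3p share bases 2 to 7. They are shown to place them against let-7b and let-7i above, with bases 2 to 8 in capitals.
let-7j: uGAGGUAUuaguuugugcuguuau
let-7k: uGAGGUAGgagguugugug
miR-1961: uGAGGUAGuaguuagaa
miR-202-3p: aGAGGUAUagcgcaugggaaga

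let-7j differs from let-7i by G8U and runs on at its 3′ end, and let-7k differs from let-7b by U9G over its 19 bases. The values of these probes ran beside those of their nearest member. let-7k had D3/D0, D5/D0, D7/D0 and aged over young ratios of 0.341, 0.622, 0.734 and 0.946, where let-7b-5p had 0.304, 0.649, 0.743 and 0.923. let-7j had 0.763, 1.43, 1.33 and 0.749, where let-7i-5p had 0.851, 1.37, 1.19 and 0.935. Whether the 2 probes of such a pair read separate RNAs was not tested. miR-1961, which differs from let-7a at 3 of its 17 bases, was bright on no array, with scanned intensities of 51.5 to 104, and miR-202-3p was detected on none.

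The opposite arms of the hairpins, the -3p or passenger strands that are usually degraded, were dim. Of 11 such probes, let-7a-1-3p, let-7b-3p and let-7d-3p were detected on all 5 arrays. The probe of let-7a-1-3p also stands for let-7c-2-3p. let-7d-3p gave scanned intensities of 179 in unwounded aged skin, 132, 146 and 206 in the wounds in order of day, and 246 in young skin. It was not bright at aged D0, and its normalized D3/D0 and aged over young ratios were 0.730 and 1.39. At aged D0 let-7a-1-3p and let-7b-3p gave 125 and 110 against a detection level of 105. Ratios of signals this close to the empty spots are drawn towards 1, so passenger ratios are not set beside those of the guide arms. let-7e-3p and miR-98-3p were not detected on either D0 array, so that nothing can be said of the other arm of the 2 members that differed most with age.

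The neighbours in the miR-99/let-7/miR-125 clusters gave a mixed picture. On D3 the guide arms miR-99a, miR-99b, miR-100, miR-125a and miR-125b had ratios of 0.537 to 0.612, all 5 below 1 and near the family median. In aged over young they separated. miR-99b-5p and miR-125a-5p, from the hairpins on either side of let-7e, had 1.66 and 1.40, while let-7e-5p had 0.349. miR-100-5p, from the cluster of Mirlet7a-2, was 0.489 with spots at 0.505 and 0.474, and was the one of these 5 at least 2-fold lower in aged skin. On D7 miR-100-5p was 1.38 and miR-99b-5p 0.608. The directions around let-7e hold after quantile normalization. The scanned intensities, not normalized, gave aged over young ratios of 0.549 for miR-99b-5p, 0.576 for miR-125a-5p and 0.108 for let-7e-5p, all below 1, beside a bright median of 0.460. With the processed values of the authors, miR-99b-5p and miR-125a-5p had 1.43 and 1.34. No further alternative was run for these neighbours.

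Of the 190 other miRNAs bright on all 5 arrays, miR-30a-5p was nearest to the family's median profile, measured as the root mean square of the differences between log2 values relative to aged D0 over the other 4 arrays. The distance was 0.15 for miR-30a-5p, 0.16 for miR-145b and 0.20 for miR-146a-5p, a brake on inflammatory signalling, against a median of 0.73. The profile is the median of the members, so that their own distances are small in part by construction. The members themselves lay at 0.06 for let-7f-5p, 0.08 for let-7d-5p and 0.13 for let-7a-5p, but at 0.78 for let-7e-5p and 0.87 for miR-98-5p. These last 2 were therefore no nearer to the family's profile than the median of the other miRNAs.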

How the data were processed

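miRNA levels were measured on 5 single-colour (Cy3) arrays by a service provider, from 0.5 µg of total RNA each, and samples were grouped by their titles. The authors deposited the scanned median intensity of each spot, linear and not normalized, with empty background columns, and a table of processed intensity normalized by a method not given in the sources used here. Intensities were background corrected with normexp (offset 50, fitted on the spots alone) in limma 3.58.1 (R 4.3.3), control spots were left out, log2 values were quantile normalized over 5 arrays and the 2 spots averaged; Python 3.11.15 with pandas 2.3.3 gave the summaries. The procedure was tested on simulated data, a scaled copy of the aged D0 array with equal numbers of bright miRNAs raised and lowered. Such balanced changes do not test how it handles a shift of most bright miRNAs in one direction. Named miRNAs were the 9 members, all other let-7 and miR-98 probes, probes with the let-7a seed, miR-202-3p, the 5 guide arms of neighbouring hairpins and the 3 nearest profiles. The members and lists were chosen with earlier results of these data known. The 10 alternatives changed the normalization, background correction, dim-probe filter or source of values. The dim-probe filter, quantile normalization over detected miRNAs, gave the same family medians as the main processing on D3, D5 and D7. Leaving out background correction gave nearly the same ones, so that both add little as checks. Processed values below 1 were set to 1. The number of arrays limits the precision.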

Additional observations from a re-analysis of the deposited data

How the results depend on the processing

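No paired analysis was possible because there was only 1 array for a condition. The 14 family medians that moved by more than the spot SD are given here on the log2 scale, and the cause was not tested. For D3/D0 (-0.92), the median was -1.31 without normalization, -1.45 with the 75th percentile, -0.70 with cyclic loess and -1.94 with the spike controls. For D5/D0 (-0.14), it was -0.81 without normalization, -0.68 with the 75th percentile, -0.38 with the median and -1.23 with the spike controls. For D7/D0 (0.04), it was -0.62 with the 75th percentile. For aged over young (-0.12), it was -1.22 without normalization, 0.52 with the 75th percentile, -1.37 with the median, -0.32 with the authors' processed values and -0.90 with the spike controls.

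Members at least 2-fold lower numbered 4 on D3. They numbered 6 without normalization or with the 75th percentile, and 5 with quantile normalization of the 2 arrays. With the median or the authors' processed values they numbered 3, with cyclic loess 2 and with the spike controls 9. On D5 the number was 0, but 3 without normalization or with the 75th percentile and 6 with the spike controls. On D7 it was 0, and 2 with the 75th percentile. In aged over young it was 2, but 7 without normalization, 8 with the median and 4 with the spike controls. At least 2-fold higher were 0 in each comparison, but 1 on D7 without normalization and with scaling to the median or the spike controls, and 1 in aged over young with the 75th percentile. Over the bright miRNAs on D3 the split was 30 higher and 41 lower, or 15 and 99 with the spike controls and 43 and 25 with the median. In aged over young it was 16 and 17, or 1 and 148 with the median and 51 and 15 with the 75th percentile. After quantile normalization a spot with the same rank on both arrays has a ratio of exactly 1, as 4 of the 72 spot ratios of the members did, so that small differences of the brightest members cannot be read.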
